A study of Mus musculus with 9 samples.

Results

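The genes described here are the mouse genes named Zfp followed by a number, most of which encode zinc finger proteins. They were chosen by symbol and by a mean raw count of at least 100 over all 9 libraries, so the members were selected on measured counts as well as on name. Zfp36, whose product belongs to a separate family of RNA-binding proteins, was left out. Of 362 genes with such a symbol in the table of 27179 gene identifiers, 253 met the minimum, and all 253 also passed the low-count filter of the test. At the edge of the choice, mean raw counts of Zfp174, Zfp248 and Zfp428 were 106, 104 and 102, while Zfp551, Zfp937 and Zfp808 fell outside with 99.9, 99.2 and 94.8. Because p-UPF1 libraries enter that mean, 6 members with a mean under 100 in both input and IgG were admitted through the p-UPF1 libraries alone.

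All libraries came from wild-type mice. CD43- splenic B cells were activated in culture for 72 h with, per the labels, CD40L (5 ug/mL), anti-IgM (10 ug/mL) and IL-4 (20 ng/mL). In the methods, anti-CD40 antibody takes the ligand's place. RNA was sequenced from 3 input lysates, 3 precipitates with normal rabbit IgG and 3 precipitates made with anti-phospho-UPF1 (p-UPF1), and all 3 groups share genotype, cells and stimuli. How many mice lay behind the libraries is not given in the sources used here, so p-values measure only the spread between these libraries. Total counts ranged from 17372510 to 24945286, lowest in IgG. The B cell receptor component Cd79a stood at 257 to 269.9 CPM (counts per 1000000) and the B cell surface protein Ms4a1 at 707 to 721 CPM in input, summed T cell markers at 0.590 to 0.906 CPM and plasma cell markers at 18.2 to 21.6 CPM. Hbb-bs, Hba-a1 and Ncr1 had no count in any library, and Adgre1 alone made up nearly all of the myeloid sum of 125 to 137 CPM. These are bulk samples, in which fewer cells with an RNA and less of that RNA per cell cannot be told apart.

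Nonsense-mediated mRNA decay (NMD) removes RNAs with premature stop codons and some normal RNAs. The helicase UPF1 drives it and, once phosphorylated, recruits decay factors to the RNA it sits on. A C2H2 zinc finger is a short fold in which a pair of cysteines and a pair of histidines hold a zinc ion, and arrays of such fingers read DNA sequence. Many of these proteins also carry a KRAB domain, which recruits the corepressor TRIM28 (KAP1) and silences retroelements and imprinted loci. KRAB zinc finger genes arose by repeated local duplication and lie in clusters of close relatives.

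Most members fitted their family name. A coding transcript was found for 252 of the 253 members (Zfp783 is annotated as non-coding), and 212 of them held 5 or more C2H2 patterns, with up to 34 in 1 protein. No C2H2 pattern was found in 5, Zfp365, Zfp330, Zfp703, Zfp839 and Zfp451. A KRAB A-box-like pattern was found in 131 members and a SCAN-like pattern in 12. The conserved linker between fingers was present in 196 members (77.8%), against 3.13% of 9717 coding genes at the same minimum count. The sequence coding for this linker is shown for the 4 KRAB-like members with the highest and the 4 with the lowest p-UPF1 signal over IgG, since it is what the family shares on both sides of the comparison. Each line gives 30 bases of exonic coding sequence (GRCm38, sense strand of the gene), with the 18 bases that code for the linker in capitals.
Zfp747 (chr7:127374451-127374480, minus strand): actcacACAGGTGAAAAGCCGTTTcagtgc
Zfp866 (chr8:69766393-69766422, minus strand): attcacACAGGAGAGAGACCCTATaaatgt
Zfp316 (chr5:143255066-143255095, minus strand): acccatACCGGCGAGAAGCCCTTCccgtgc
Zfp112 (chr7:24126226-24126255, plus strand): atccacACAGGAGAGAAGCCATACaagtgt
Zfp948 (chr17:21587250-21587279, plus strand): attcatACTGGTGAGAAACCCTACaagtgc
Zfp169 (chr13:48490366-48490395, minus strand): acacatACCGGGGAGAAGCCTTTTgtgtgt
Zfp945 (chr17:22851868-22851897, minus strand): attcatACTGGAGAGAGACCTTACaaatgt
Zfp871 (chr17:32775447-32775476, minus strand): attcacACGGGGGAGAAACCGTACgtgtgc

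The spelling of the linker varied between members. The commonest spelling, ACTGGAGAGAAACCCTAT, searched on the coding strand of coding sequences, was present in 23 members (9.13%) and in 0.291% of 20646 coding genes. By 50-base windows, 50 members shared 5% or more of their transcript with another gene, and exons of 52 overlapped a gene on the opposite strand, so counts of those members are uncertain wherever reads were divided between copies or strand was not used.

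As a group, the Zfp RNAs ranged widely in p-UPF1 signal, with more members called above IgG than below it. Members together took 0.890% ± 0.004 of input counts, 1.07% ± 0.03 of IgG counts and 1.37% ± 0.002 of p-UPF1 counts (SD, n = 3). No library overlapped between the groups in this share. Without the 5 most abundant members the shares were 0.773%, 0.889% and 1.11%. Against IgG, 131 members (51.8%) were higher in p-UPF1 and 77 (30.4%) were lower (edgeR's quasi-likelihood test, Benjamini-Hochberg adjusted p under 0.05), beside 40.4% and 42.2% of all 13129 genes tested. The counts were 119 and 98 with library size alone, and 124 and 96 with upper-quartile factors. The median log2 fold change over IgG was 0.29 for members and -0.03 for all genes tested. Against input, 141 members (55.7%) were higher and 74 (29.2%) lower, beside 40.8% and 42.6% of all genes, with medians of 0.40 and -0.03. In 130 members all 3 p-UPF1 libraries lay above every IgG and input library and in 69 below, while the same held for 37% and 37.6% of all genes tested.

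**Figure D1:**
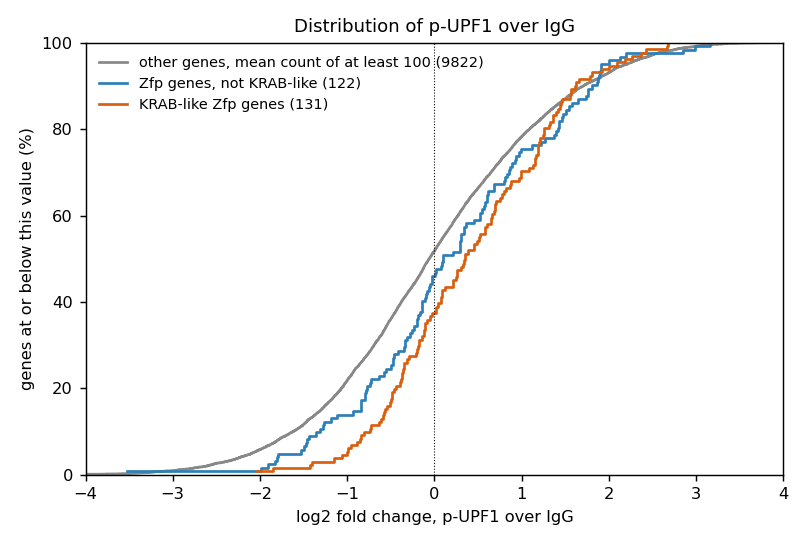
Cumulative share of genes (y axis, %) at or below each log2 fold change of p-UPF1 over IgG (x axis), for 131 KRAB-like Zfp genes, the 122 other Zfp genes (Zfp783 included) and 9822 other genes with a mean count of at least 100. Both Zfp curves lie to the right of the other genes over most of the lower range, and all 3 curves meet near the upper end.

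Without a fold minimum, members departed from all genes by like amounts each way (51.8% against 40.4% higher, 30.4% against 42.2% lower). With a 2-fold minimum as well, they were set apart more by few low RNAs than by many high ones. With that fold minimum, 69 members (27.3%) were higher and 23 (9.09%) lower than IgG, beside 22.2% and 21.9% of all genes tested. The other 9822 genes at the same minimum count split into 2136 and 2144. These counts were not tested against each other. How members were chosen bears on the size of the shift: with a mean input count of at least 100 as the minimum, 252 Zfp genes qualified, 122 were higher and 82 lower than IgG, and the median was 0.11.

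Both criteria of the study's methods for a p-UPF1-bound RNA, log2 fold changes of 1 or more over IgG and of 2 or more over input with adjusted p under 0.05 in each, were met by 17 members (6.72%), against 6.25% of all genes tested, so the share of bound RNAs was near the background. Of the 17, Zfp112, Zfp708 and Zfp773 had mean counts under 100 in both input and IgG and were members only through their p-UPF1 counts. With a minimum of 100 on the input or the IgG mean, 14 were bound. A further 52 members reached the IgG criterion without being bound, as did 16% of all genes tested, and 9 members stood between 1.9 and 2.0 over input, beside 1.32% of all genes. The number of bound members was 29 (11.5%) when an IgG library was made the reference for scaling, against 7.74% of all genes tested under that reference.

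**Figure D2:**
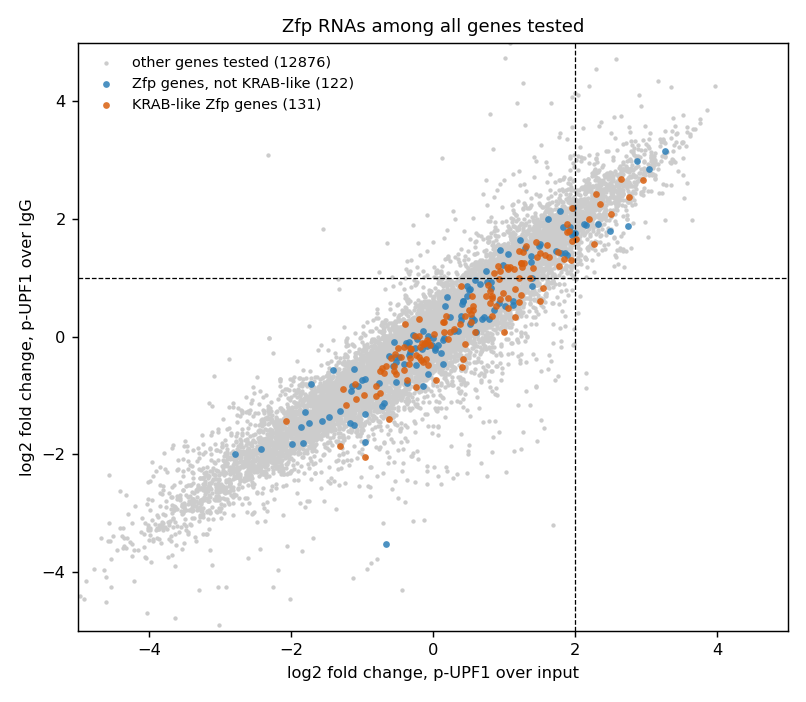
Log2 fold change of p-UPF1 over input (x axis) and over IgG (y axis) for 131 KRAB-like Zfp genes, 122 other Zfp genes and 12876 other genes tested, with axes limited to 5 in either direction. Dashed lines mark 2 over input and 1 over IgG, and the 17 bound Zfp RNAs lie beyond both.

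The 3 highest p-UPF1 signals over IgG were those of Zfp593, Zfp346 and Zfp41. Zfp593, on chromosome 4, encodes a protein with 1 C2H2 pattern that acts in assembly of the large ribosomal subunit. The Zfp593 level was 12.2, 10.8 and 12.6 CPM in input, 10.5, 16.8 and 10.9 CPM with IgG and 113, 114 and 114 CPM with p-UPF1. Its p-UPF1 level was well above all others, with 3.16 ± 0.11 (SE, adjusted p = 7.97e-14) over IgG and 3.26 ± 0.11 (SE, adjusted p = 4.23e-14) over input. E130218I03Rik, on the opposite strand, covers 34.7% of Zfp593 exons, and reads of the pair cannot be told apart without strand. Zfp346, on chromosome 13, binds double-stranded RNA. In CPM, Zfp346 stood at 34.9, 38.8 and 33.6 in input, at 34.1, 32.8 and 32.1 with IgG and at 254, 268 and 262 with p-UPF1. All 3 p-UPF1 libraries lay above the others while input and IgG overlapped, and log2 fold changes were 2.99 ± 0.05 (SE, adjusted p = 3.26e-17) over IgG and 2.87 ± 0.05 (SE, adjusted p = 2.84e-17) over input. Zfp41, on chromosome 15, has a coding length of 597 bases and a 3′ UTR of 7171 bases. Input libraries held 10.3, 8.98 and 9.99 CPM of Zfp41, IgG libraries 10.8, 10.2 and 12.4 and p-UPF1 libraries 81.5, 81.8 and 77.6. Its log2 fold changes were 2.85 ± 0.07 (SE, adjusted p = 1.67e-15) over IgG and 3.04 ± 0.07 (SE, adjusted p = 6.53e-16) over input. In these 3 genes IgG did not differ from input beyond the test's threshold.

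Among KRAB-like members, Zfp747 and Zfp866 led. Zfp866 measured 32.9, 37.5 and 36.4 CPM in the input libraries, 43.4, 43.2 and 43.9 CPM with IgG and 270.0, 280.0 and 278 CPM with p-UPF1. The log2 fold change was 2.67 ± 0.05 (SE, adjusted p = 3.89e-17) over IgG and 2.96 ± 0.05 (SE, adjusted p = 1.05e-17) over input. IgG libraries were above input too, by 0.29 ± 0.05 (SE, adjusted p = 2.72e-04), and 12% of Zfp866 windows are shared with other genes. Zfp747 rose by 2.68 ± 0.07 (SE, adjusted p = 1.11e-15) over IgG, with 36.9% of its windows shared. Zfp316, Zfp112 and Zfp605 followed with 2.43, 2.37 and 2.26 over IgG. Zfp112 was the scarcest of them, at 1.36 to 2.39 CPM in input and at most 13.8 CPM in p-UPF1 libraries. Zfp12, Zfp708, Zfp951 and Zfp251 completed the 9 bound KRAB-like members. Zfp708 shares 97.4% of its windows with other genes, so its counts cannot be assigned to it with certainty.

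The remaining bound members were Zfp446 and Zfp202, both SCAN-like, together with Zfp523, Zfp740 and Zfp773. Zfp523 is a close relative of the promoter-binding factor Zfp143. Zfp740 was the most abundant of all bound members by count. The Zfp740 level was 137, 139 and 133 CPM in input, 243, 252 and 246 CPM with IgG and 903, 907 and 928 CPM with p-UPF1. All 3 groups stood apart, p-UPF1 by 1.88 ± 0.04 (SE, adjusted p = 7.43e-17) over IgG and IgG by 0.86 ± 0.04 (SE, adjusted p = 8.76e-11) over input. Exons of Csad on the opposite strand cover 20% of Zfp740. Zfp951 stood closest to the input criterion, at 2.01, and was no longer bound without p-UPF1 library B or without input library B.

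**Figure D3:**
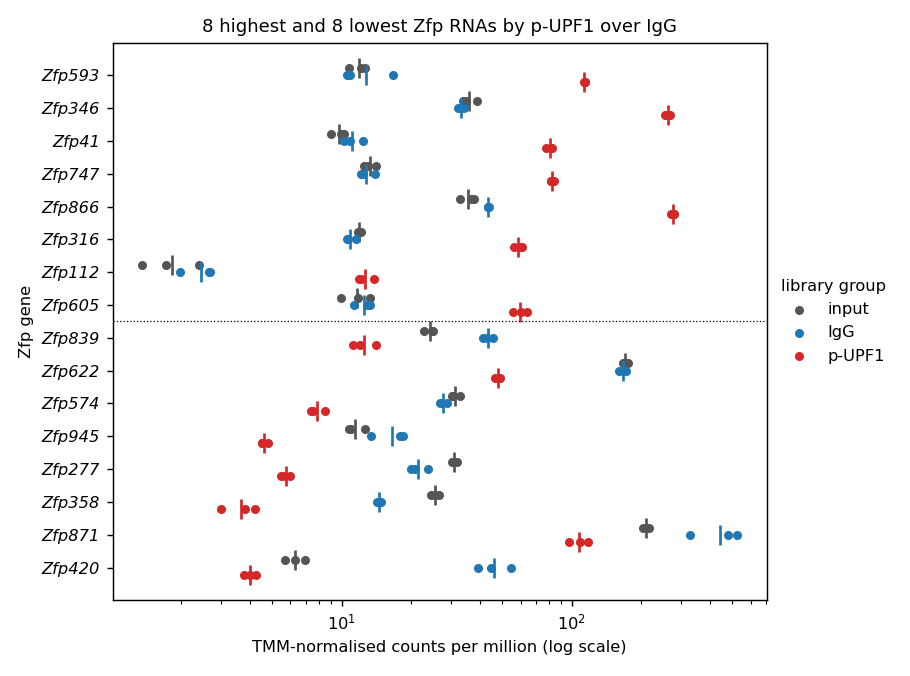
TMM-normalised CPM (x axis, log scale) in each of the 9 libraries for the 8 Zfp genes highest and the 8 lowest in p-UPF1 over IgG. Points are libraries and vertical ticks are group means. The p-UPF1 libraries lie above all others in the upper 8 genes and below all others in the lower 8. Among the lower 8, Zfp420, Zfp871, Zfp839 and Zfp945 have IgG values raised over input.

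At the other end stood RNAs that p-UPF1 precipitates held at a fraction of their level in both backgrounds. Zfp622, on chromosome 15, encodes a factor of late cytoplasmic maturation of the large ribosomal subunit. In CPM, Zfp622 stood at 175, 169 and 168 in input, at 161, 173 and 168 with IgG and at 48.4, 46.6 and 48.9 with p-UPF1. Its log2 fold change was -1.8 ± 0.05 (SE, adjusted p = 1.19e-15) over IgG and -1.83 ± 0.05 (SE, adjusted p = 7.40e-16) over input, in the opposite direction to Zfp593, and IgG and input overlapped. Zfp358 on chromosome 8 had the shortest 3′ UTR among the 8 lowest members, at 73 bases. Input libraries held 24.4, 26.5 and 25.6 CPM of Zfp358, IgG libraries 14.8, 14.6 and 14.3 and p-UPF1 libraries 2.99, 3.79 and 4.22. Its log2 fold change in p-UPF1 was -1.99 ± 0.11 (SE, adjusted p = 6.09e-11) over IgG, and that of IgG over input was -0.81 ± 0.09 (SE, adjusted p = 2.10e-06). Zfp277 on chromosome 12 showed the same order of groups. Zfp277 measured 30.4, 31.8 and 30.2 CPM in the input libraries, 20.8, 23.7 and 20.0 CPM with IgG and 5.48, 5.69 and 5.98 CPM with p-UPF1. Its log2 fold change was -1.91 ± 0.09 (SE, adjusted p = 6.36e-12) over IgG and -2.43 ± 0.09 (SE, adjusted p = 1.39e-13) over input. Zfp574, with 18 C2H2 patterns, stood at -1.82, and KRAB-like Zfp945 at -1.85 over IgG.

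For Zfp420 and Zfp871 the IgG libraries stood far above input. The Zfp420 level was 6.93, 6.26 and 5.71 CPM in input, 39.3, 44.6 and 54.3 CPM with IgG and 4, 4.24 and 3.76 CPM with p-UPF1. Zfp420 had the lowest log2 fold change of all members over IgG, -3.52 ± 0.13 (SE, adjusted p = 1.28e-13), but only -0.66 ± 0.16 (SE, adjusted p = 9.80e-04) over input, and its IgG libraries exceeded input by 2.86 ± 0.12 (SE, adjusted p = 5.44e-11). In CPM, Zfp871 stood at 205, 213 and 217 in input, at 326, 480.1 and 523 with IgG and at 108, 97.3 and 118 with p-UPF1. Zfp871 fell by 2.04 on the log2 scale against IgG and by 0.97 against input, with IgG above input by 1.07 ± 0.12 (SE, adjusted p = 1.83e-06). Zfp26, the remaining member of the 3 with the highest IgG over input, stood at 0.92 there, -0.51 over IgG and 0.40 over input. Its p-UPF1 libraries thus lay between the 2 backgrounds.

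IgG libraries were also set against input, with no test between members and other genes. Over input, 77 members (30.4%) were higher in IgG and 50 (19.8%) lower, beside 18.2% and 34.7% of all genes tested. With library size alone as the scale the split became 103 and 27. Medians were 0.04 for members and -0.10 for all genes, and 0.16 and 0.01 with library size alone. The lowest 3 members, Zfp428, Zfp524 and Zfp358, stood at -0.92, -0.84 and -0.81.

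KRAB-like and other members were counted side by side, with no test between them. Of 131 KRAB-like members, 71 (54.2%) were higher and 36 (27.5%) lower than IgG, with a median log2 fold change of 0.35 and 9 bound. Of 121 coding members without the pattern, 59 (48.8%) were higher and 41 (33.9%) lower, with a median of 0.10 and 8 bound. The shares over all genes tested were 40.4% and 42.2%. With library size alone, medians were 0.19 for KRAB-like members, -0.07 for the others and -0.19 for all genes tested (-0.03 with TMM). Members lower than IgG at least 2-fold numbered 6 (4.58%) of the KRAB-like and 17 (14%) of the others, beside 21.9% of all genes tested. Lower in IgG than input were 13 (9.92%) of the KRAB-like members and 37 (30.6%) of the others, beside 34.7% of all genes tested. Of the 10 members with a partial KRAB match (13 to 19 of 40 identities), 8 were higher and none lower than IgG, with a median of 1.49.

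Zfp106, Zfp598, Zfp638 and Zfp326, named here for their known functions, were higher in p-UPF1 than IgG. Zfp106, an RNA-binding protein of neurons and muscle, was the most abundant member by count. Input libraries held 428, 444 and 456 CPM of Zfp106, IgG libraries 539, 558 and 589 and p-UPF1 libraries 810.0, 819 and 887. It was higher in p-UPF1 by 0.58 ± 0.05 (SE, adjusted p = 3.89e-09) over IgG and 0.92 ± 0.05 (SE, adjusted p = 7.16e-12) over input. Zfp598, the ubiquitin ligase that marks collided ribosomes, stood at 0.36 ± 0.06 (SE, adjusted p = 1.97e-05) over IgG. Zfp638, a nuclear RNA-binding protein, stood at 0.31 and Zfp326, a splicing-linked protein, at 0.93 over IgG, each past the threshold. Zfp207, a spindle assembly factor, was lower. Zfp207 measured 294, 294 and 298 CPM in the input libraries, 238, 233 and 250.4 CPM with IgG and 91, 86.5 and 84.4 CPM with p-UPF1. Its log2 fold change in p-UPF1 was -1.46 ± 0.04 (SE, adjusted p = 9.66e-15) over IgG.

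Zfp318, which in mature B cells controls the choice between IgM and IgD transcripts, was lower. The Zfp318 level was 80.3, 78.4 and 80.3 CPM in input, 87.1, 79 and 82.4 CPM with IgG and 61.3, 58.7 and 59.5 CPM with p-UPF1. Its log2 fold change was -0.47 ± 0.05 (SE, adjusted p = 1.27e-07) over IgG and -0.41 ± 0.05 (SE, adjusted p = 5.53e-07) over input, with p-UPF1 below both backgrounds in all 3 libraries. Zfp281 stood at -1.43, Zfp644 at -1.12, Zfp217 at -0.78 and Zfp292 at -0.63 over IgG, all past the threshold. Over input, Zfp281 stood at -1.56, Zfp644 at -0.70 and Zfp217 at -0.37. In Zfp644 and Zfp217 the IgG libraries stood above input, by 0.42 and 0.41. For Zfp292 the fall was against IgG alone, since its log2 fold change over input was -0.07 ± 0.06 (SE, adjusted p = 0.27). Zfp91, a ubiquitin ligase, was near 0 at -0.11 ± 0.04 (SE, adjusted p = 0.032) over IgG, a call that 13 alternative settings lost. Zfp706 stood at -0.35. Zfp384, a partner in fusions of B cell leukaemia, stood at 0.81, Zfp335 at 0.69, Zfp148 at 0.31 and Zfp131 at 0.21 over IgG, all past the threshold. Zfp143, Zfp592, Zfp687 and Zfp609 did not pass it, with values from -0.19 to 0.01. Zfp131 lost its call with library size alone and with upper-quartile factors, and Zfp143, Zfp592 and Zfp687 gained a call as lower under both. Same-strand exons of other genes cover 42.3% of Zfp91, and opposite-strand exons cover 23% of Zfp131 and 22.7% of Zfp687. Zfp384 shares 16.8% of its windows with other genes, so counts of these 4 members are uncertain.

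Zfp809, a KRAB protein that silences murine leukaemia viruses, had overlapping groups. In CPM, Zfp809 stood at 25.6, 27 and 27.4 in input, at 27.6, 27.5 and 23.1 with IgG and at 27, 27.4 and 26 with p-UPF1. Its log2 fold change was 0.04 ± 0.07 (SE, adjusted p = 0.62) over IgG and 0.01 ± 0.07 (SE, adjusted p = 0.93) over input. Zfp568, a KRAB protein that represses a placental Igf2 transcript, stood at 0.08 ± 0.08 (SE, adjusted p = 0.33) over IgG but at 0.99 ± 0.08 (SE, adjusted p = 7.13e-09) over input, and its IgG libraries were as high as its p-UPF1 libraries. Zfp445, a KRAB protein that maintains imprints, was among the 5 most abundant members. Input libraries held 199, 206 and 190.4 CPM of Zfp445, IgG libraries 294, 324 and 302 and p-UPF1 libraries 452, 459 and 466. It was higher by 0.58 ± 0.04 (SE, adjusted p = 2.38e-09) over IgG and 1.21 ± 0.04 (SE, adjusted p = 1.50e-13) over input. Zfp362, also among those 5, stood at 1.41 ± 0.04 (SE, adjusted p = 6.10e-15) over IgG. Zfp57, the other main imprint regulator, and Zfp532 had mean counts of 23.8 and 28.9 and are not members.

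KRAB proteins act through partner proteins. Of 21 genes for these corepressors, 13 (61.9%) were lower and 3 (14.3%) higher in p-UPF1 than IgG, beside 42.2% and 40.4% of all genes tested. None was bound, against a background of 6.25%. The median log2 fold change was -0.53, beside -0.03 for all genes tested. Trim28 stood at -1.38 over IgG, from 387 ± 11 CPM with IgG to 149 ± 9 CPM with p-UPF1 (SD, n = 3). Cbx5 (HP1 alpha) was at -2.23, the histone-binding Rbbp4 and Rbbp7 at -1.81 and -1.83, and the deacetylases Hdac1 and Hdac2 at -1.1 and -1.48. The methyltransferase Setdb1 was at -0.17. The 3 higher RNAs were Uhrf1 (0.42), Cbx1 (0.26) and Morc3 (0.15).

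A long 3′ UTR is a known feature of NMD substrates, and the correlation with 3′ UTR length was lower among members than elsewhere. Spearman's correlation between 3′ UTR length and the log2 fold change over IgG was 0.09 over 252 members and 0.35 over 9465 other coding genes, which share the same libraries and are not independent of each other. Lengths come from 1 annotated transcript per gene, and the ends used in these cells were not measured. For Zfp207 that transcript has 1562 bases and a 3′ UTR of 16, while all annotated exons of the gene cover 9996 bases. With a 3′ UTR under 250 bases the median was -0.21 for 22 members and -0.93 for 1358 other genes. From 250 to under 500 bases the medians were -0.19 and -0.63, and from 500 to under 1000 bases 0.46 and 0.00. From 1000 to under 2000 bases they were 0.44 and 0.39, from 2000 to under 4000 bases 0.52 and 0.41, and at 4000 bases or more -0.03 and 0.02. The medians thus lay further apart in each class under 1000 bases than in each class above. Spearman's correlation over members was -0.12 for coding length, -0.02 for the number of C2H2 patterns, 0.13 for GC content and 0.06 for upstream start codons.

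**Figure D4:**
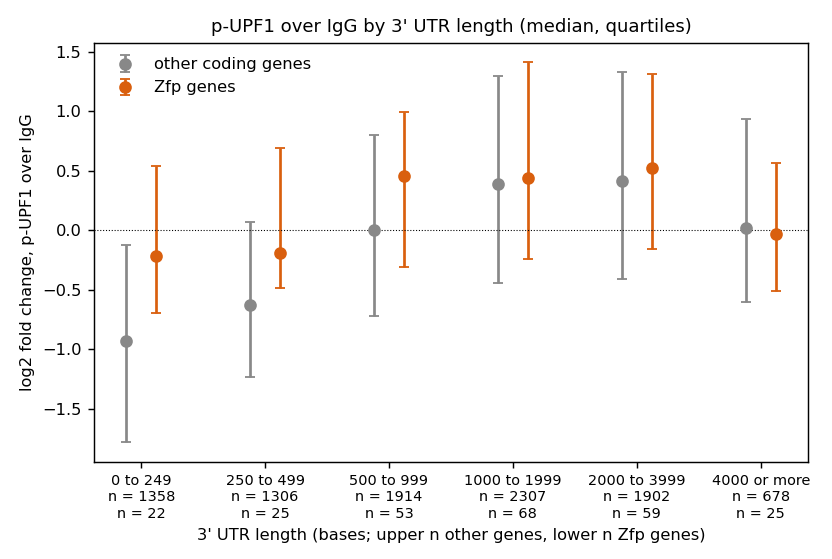
Median and quartiles (points and bars) of the log2 fold change of p-UPF1 over IgG (y axis) by 3′ UTR length in bases (x axis) for Zfp genes and other coding genes with a mean count of at least 100. Below 1000 bases the medians of Zfp genes lie well above those of other genes, and from 1000 bases they lie close together.

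A transcript annotated as an NMD substrate was listed for 53 members (21%), against 31.5% of coding genes at the same minimum count. Of these 53, 38 (71.7%) were higher and 9 (17%) lower than IgG, with a median of 0.58. Of the 199 without one, 92 (46.2%) were higher and 68 (34.2%) lower, with a median of 0.09. Over all coding genes at that count with and without such a transcript the shares higher were 48.9% and 41.4%, the shares lower 39.9% and 48.4%, and the medians 0.12 and -0.12. Counts are per gene, so which transcript was precipitated was not measured. Of the 17 bound members, 4 (23.5%) have such a transcript, namely Zfp346, Zfp12, Zfp202 and Zfp523.

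Members lie on 20 chromosomes, and 94 of them lie in 9 runs of 6 or more members with gaps of at most 1 Mb. Both higher and lower genes were present in 8 of the 9 runs, all but that on chromosome 6. Of all genes tested, 40.4% were higher than IgG, 42.2% were lower and 6.25% were bound. The largest run, 19 genes from Zfp160 to Zfp213 on chromosome 17 (21008941 to 23564226, GRCm38), had 5 higher and 9 lower than IgG and a median log2 fold change of -0.18. A second run on that chromosome, 10 genes from Zfp871 to Zfp414, had 2 higher and 8 lower and a median of -0.69. The run on chromosome 13 from Zfp712 to Zfp85 had 7 higher, 3 lower and a median of 0.38, and 11 of its 14 genes share 5% or more of their windows with other genes. The run on chromosome 6 from Zfp398 to Zfp775 had 7 of 8 higher, none lower and a median of 1.43, without a bound member. On chromosome 5, 11 of 13 members were higher and 4 were bound (Zfp316, Zfp605, Zfp12 and Zfp951). These runs and chromosome 5 were picked out after the values were known, and genes within a run share sequence, so no test was made between them.

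**Figure D5:**
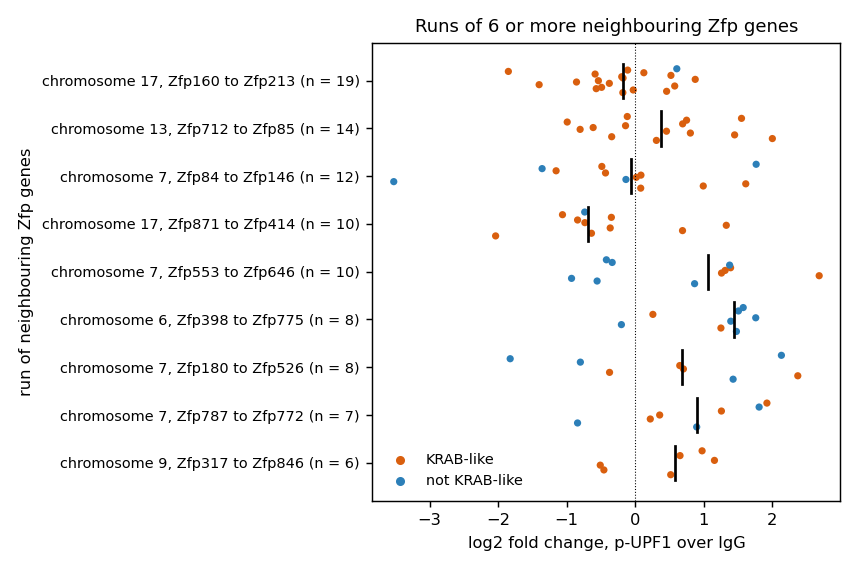
Log2 fold change of p-UPF1 over IgG (x axis) for each gene in the 9 runs of 6 or more neighbouring Zfp genes (y axis), coloured by KRAB-like pattern, with a black line at the median of each run. All 9 runs hold genes on both sides of 0, with medians from -0.69 on chromosome 17 to 1.43 on chromosome 6.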

How the data were processed

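Counts were examined in 9 libraries (3 input, 3 IgG, 3 p-UPF1). The authors deposited unscaled read counts for each NCBI Gene number. Per the labels, a directional kit was used and the submitters' processing notes name cutadapt, HISAT2, featureCounts and mm10, without versions. The study's methods count its other RNA-seq as unstranded. For RIP-seq the setting is not given in the sources used here. Symbols and positions are from RefSeq on GRCm38, and transcripts, UTR lengths and NMD annotation from GENCODE M21 (APPRIS principal, then longest coding sequence). Proteins were translated from those transcripts, since the planned RefSeq protein table was not used here. A C2H2 pattern is C, 2 to 4 residues, C, 12 residues, H, 3 to 5 residues, H. KRAB-like means at least 20 of 40 identities to an A-box consensus and SCAN-like at least 30 of 61.

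Genes were kept with filterByExpr (minimum count 10, minimum total 15), scaled by TMM and fitted over all 9 libraries with 6 residual degrees of freedom in edgeR 4.0.16. Each contrast was tested two-sided by the quasi-likelihood test with Benjamini-Hochberg adjustment over all 13129 genes tested. The fit was tested on simulated data in which only a small share of genes changed. In the p-UPF1 precipitates most genes were called, a setting that was not simulated. Log2 fold changes use a prior count of 0.125 and are given with standard errors (SE). CPM are TMM-normalised, except that levels and sums of cell type markers use library totals. PCR copies were not marked by molecular identifiers, so copies cannot be told from separate molecules and counting error may be understated. Columns carry letters that the labels do not tie to replicate numbers, so libraries are known by group only. No batch is given in the labels.

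The members and lists were chosen with earlier results of these data known. Named members were Zfp genes with known functions listed by symbol, the 8 highest and 8 lowest over IgG, the 5 most abundant, the 3 highest and 3 lowest of IgG over input, the 3 on either side of the count minimum, and bound members. Others named (the 5 without a C2H2 pattern, Zfp783 and the ends of runs) were chosen after their values were seen. Alternatives covered scaling, filters, the test, the count minimum, and leaving out each library. One marker gene and the sum that holds it are not reported here.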

Additional observations from a re-analysis of the deposited data

How the results depend on the processing

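The planned replicate block was not run because the labels do not tie the letters of the columns to replicate numbers. With the shared letter as a replicate block, an alternative added after seeing the data with 4 residual degrees of freedom, 132 members were higher and 80 lower than IgG, 141 and 76 than input, 80 and 53 in IgG than input, and 18 were bound. Deviations from group means correlated at -0.0051 to 0.054 between libraries of 1 letter and at -0.056 to 0.022 between letters. Within letters A and B, values of 0.032 to 0.054 all exceeded the highest value between letters. Within letter C, values of -0.0051 to 0.0076 did not. In the study's methods a small part of the lysate was kept as input and the rest precipitated, so groups may be paired by lysate. The labels do not say whether letters mark such pairs, so the letter was used only as the alternative above. Counts of members called kept within 1.5 times their main value except as follows. Members lower in IgG than input, 50 in the report, came to 27 with library size alone, 30 without a low-count filter, 24 with only the groups compared in the fit, 27 with input library A and 28 with IgG library A as TMM reference. Bound members rose from 17 to 29 without the filter and with IgG library A as reference, when 5.38% and 7.74% of all genes tested were bound. Tested against the fold minimum itself (glmTreat), 66 members were higher and 21 lower than IgG, 13 and 2 than input, and 1 higher and 0 lower in IgG than input (also 0 at an unadjusted p under 0.05). The references and the list of 157 members without shared reads or opposite-strand overlap were chosen after seeing the data. On that list 78 were higher and 51 lower than IgG, 84 higher than input, and 27 lower in IgG than input. Leaving out single libraries gave 128 to 131 members higher and 72 to 86 lower than IgG, 137 to 143 higher and 69 to 82 lower than input, 63 to 84 higher and 41 to 57 lower in IgG than input, and 16 to 18 bound. Medians moved with scale and list. For p-UPF1 over IgG, the median of members, 0.29 in the report, was 0.13 with library size alone, 0.16 with upper-quartile factors, 0.21 with input library A as reference, 0.34 at a minimum of 200, 0.11 at a minimum input count of 100, 0.23 at a minimum IgG count of 100 and 0.24 without shared reads. For p-UPF1 over IgG, the median of KRAB-like members, 0.35 in the report, was 0.19 with library size alone, 0.21 with upper-quartile factors, 0.26 with input library A as reference, 0.28 at a minimum mean count of 50, 0.49 at a minimum of 200, 0.25 at a minimum input count of 100, 0.26 at a minimum IgG count of 100 and 0.25 without shared reads. For p-UPF1 over IgG, the median of members without KRAB, 0.096 in the report, was -0.066 with library size alone, -0.041 with upper-quartile factors, 0.14 without a low-count filter, 0.012 with input library A as reference, 0.25 at a minimum of 200 and 0.023 at a minimum input count of 100. For p-UPF1 over input, the median of members, 0.40 in the report, was 0.36 with library size alone, 0.34 with upper-quartile factors, 0.45 with DESeq2 size factors, 0.54 without a low-count filter, 0.43 with a filter of 1 CPM in 3 libraries, 0.43 with only the compared groups in the fit, 0.45 with DESeq2 as the test, 0.43 with input library A as reference, 0.53 with IgG library A as reference, 0.38 at a minimum mean count of 50, 0.48 at a minimum of 200, 0.26 at a minimum input count of 100, 0.38 at a minimum IgG count of 100 and 0.24 without shared reads. For p-UPF1 over input, the median of KRAB-like members, 0.53 in the report, was 0.48 with library size alone, 0.46 with upper-quartile factors, 0.57 with DESeq2 size factors, 0.66 without a low-count filter, 0.55 with a filter of 1 CPM in 3 libraries, 0.55 with only the compared groups in the fit, 0.57 with DESeq2 as the test, 0.55 with input library A as reference, 0.65 with IgG library A as reference, 0.43 at a minimum mean count of 50, 0.74 at a minimum of 200, 0.41 at a minimum input count of 100, 0.45 at a minimum IgG count of 100 and 0.39 without shared reads. For p-UPF1 over input, the median of members without KRAB, 0.20 in the report, was 0.15 with library size alone, 0.13 with upper-quartile factors, 0.24 with DESeq2 size factors, 0.33 without a low-count filter, 0.24 with DESeq2 as the test, 0.32 with IgG library A as reference, 0.29 at a minimum of 200, 0.14 at a minimum input count of 100 and 0.16 without shared reads. For IgG over input, the median of members, 0.04 in the report, was 0.16 with library size alone, 0.11 with upper-quartile factors, 0.13 without a low-count filter, 0.15 with only the compared groups in the fit, 0.15 with input library A as reference and 0.14 with IgG library A as reference. For IgG over input, the median of KRAB-like members, 0.084 in the report, was 0.20 with library size alone, 0.15 with upper-quartile factors, 0.17 without a low-count filter, 0.19 with only the compared groups in the fit, 0.19 with input library A as reference and 0.18 with IgG library A as reference. For IgG over input, the median of members without KRAB, -0.027 in the report, was 0.088 with library size alone, 0.042 with upper-quartile factors, 0.061 without a low-count filter, 0.079 with only the compared groups in the fit, 0.079 with input library A as reference, 0.072 with IgG library A as reference and 0.027 without shared reads. Leaving out single libraries, these medians ranged from 0.23 to 0.31 (all members, p-UPF1 over IgG), from 0.30 to 0.45 (KRAB-like, p-UPF1 over IgG), from 0.076 to 0.13 (others, p-UPF1 over IgG), from 0.39 to 0.42 (all members, p-UPF1 over input), from 0.51 to 0.54 (KRAB-like, p-UPF1 over input), from 0.17 to 0.23 (others, p-UPF1 over input), from 0.031 to 0.056 (all members, IgG over input), from 0.044 to 0.096 (KRAB-like, IgG over input), from -0.057 to -0.021 (others, IgG over input). The median of KRAB-like members in IgG over input was 0.044 without input library C, 0.046 without IgG library B and 0.05 without IgG library C, and that of members without KRAB was -0.057 without IgG library B, -0.054 without input library C and -0.045 without IgG library A. The median of all genes over IgG itself moved from -0.03 to -0.19 with library size alone, and that of IgG over input from -0.10 to 0.01, so a value is relative to the scale. The 17 bound members were bound in all 20 planned settings on the full list, except Zfp708, Zfp202 and Zfp523 (lost with glmTreat) and Zfp951 (lost in 5). Of single members, Zfp609 over IgG turned to -0.15, lower past the threshold, with library size alone. IgG libraries have the lowest depth, which limits what is measured for scarce members.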

Other observations

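Other zinc finger families in the same libraries were counted by the same test, in which 40.4% of all genes tested were higher and 42.2% lower in p-UPF1 than IgG and 6.25% were bound. Of 34 Zbtb genes tested, which pair a BTB domain with C2H2 fingers, 14 (41.2%) were higher and 17 (50%) lower in p-UPF1 than IgG, with a median log2 fold change of -0.13, and 3 met both criteria for a bound RNA. These were Zbtb46 (41.6 ± 3 CPM with IgG and 176 ± 1 CPM with p-UPF1, SD, n = 3), Zbtb40 and Zbtb42, with log2 fold changes over IgG of 2.08, 2.04 and 1.5. Zbtb34 was the lowest at -1.84. Of 18 Zscan and Zkscan genes tested, 11 (61.1%) were higher and 4 (22.2%) lower, with a median of 0.60, and Zkscan5 was bound (2.17 over IgG and 2.33 over input).

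Of 12 Klf genes tested, 6 (50%) were higher and 4 (33.3%) lower than IgG and none was bound. Klf6, Klf10 and Klf16 nonetheless stood at 2.05, 2.04 and 2.43 over IgG, and missed the criterion over input at 1.96, 1.82 and 1.92. Of 16 Zc3h genes, whose CCCH fingers bind RNA, 8 (50%) were higher and 5 (31.2%) lower, led by Zc3h10 at 1.79 over IgG. The 62 Zfp genes tested below the minimum mean count of 100 had 15 (24.2%) higher and 14 (22.6%) lower than IgG, a median of 0.02 and 1 bound RNA.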
